A study of Mus musculus with 12 samples.

Results

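The Hox genes are described here in embryoid bodies grown from mouse EpiSCs, epiblast stem cells, which are a primed pluripotent cell type. Members were all genes whose mouse symbol starts with Hoxa, Hoxb, Hoxc or Hoxd, matched through the Ensembl identifier with its version removed. The rule took 45 of 55487 genes: 39 protein-coding genes and 6 antisense or opposite-strand transcripts. HoxA, on chr6, gave 14 members, HoxB, on chr11:96194316-96368256, gave 12, HoxC, on chr15:102921103-103036852, gave 9 and HoxD, on chr2:74668310-74765142, gave 10 (GRCm38, as the deposited counts give them). The EpiSCs were converted in vitro from embryonic stem cells, and cells of all 4 groups carried a doxycycline-inducible FLAG-tagged Mixl1, whose homeodomain protein is made in the primitive streak. NoDox_d2 and NoDox_d4 were collected on days 2 and 4 without doxycycline. D1Dox_d2 and D3Dox_d4 received 1 µg/mL doxycycline and were collected on days 2 and 4. The number after the D is not defined in the labels, and neither is the start of induction. Each group held 3 libraries, which the labels do not describe as separate cultures, so p-values measure the spread between these libraries, and that spread may be technical. Cells without the transgene were not given doxycycline in these groups, so effects of the drug and of Mixl1 cannot be told apart. The comparisons ask how the Hox genes differed with induction on each day, and between the days in each arm.

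Hox genes encode homeodomain transcription factors that give cells their position along the head-to-tail axis. They lie in clusters on 4 chromosomes, and in the embryo genes at the 3′ end of a cluster, with low paralog numbers, are switched on before and further forward than genes at the 5′ end, with high numbers. Paralogs are members of different clusters that carry the same number. Wnt and FGF signals, Cdx factors and retinoic acid act on the clusters during gastrulation, Polycomb proteins keep them silent before that, and Pbx and Meis proteins bind DNA together with Hox proteins. Antisense transcripts start inside the clusters and run against the coding genes. In bulk RNA, fewer cells of a type and less RNA per cell cannot be told apart.

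Libraries held 24100487 to 28020036 counts, so that 3 counts corresponded to 0.107 to 0.124 CPM (counts scaled to library size). Mixl1, the induced gene, was at 392, 362 and 387 CPM in D1Dox_d2 and at 478, 417 and 450 CPM in D3Dox_d4. It was at 1.62, 1.83 and 1.11 CPM in NoDox_d4 and at 91.0, 0.59 and 1.15 CPM in NoDox_d2, where replicate 1 was therefore not at the level of the others. The uninduced libraries numbered 1 stood apart: log2 CPM correlated at 0.957 and 0.961 between NoDox_d2 replicate 1 and the other libraries of its group, and at 0.960 and 0.961 for NoDox_d4 replicate 1, against 0.987 to 0.992 for all other pairs within a group. Counts of called Hox members are therefore given for all 12 libraries and without both of these libraries. Counts of other gene lists are for all 12 libraries unless stated. All 8 primed epiblast markers were detected in every group, with a summed level of 931 to 1082 CPM in NoDox_d2 and 263 to 290 CPM in D3Dox_d4. Fibroblast feeder markers summed to 1882 to 2308 CPM in D1Dox_d2 and to 198 to 810 CPM in the other groups. Hox members took 0.0146% to 0.0168% of the counts in D1Dox_d2, 0.0372% to 0.0387% in NoDox_d2 and 0.0533% to 0.0691% in D3Dox_d4. In NoDox_d4 they took 0.1558% in replicate 1 but 0.0459% and 0.0514% in the others.

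Upstream sequences of 4 members are shown because these genes moved in opposite directions between the induced groups: Hoxb1 and Hoxa2 are anterior genes that were higher at day 4, and Hoxd13 and Hoxa13 are genes of paralog group 13 that were lower. Each sequence holds the 250 bases before the RefSeq start site (GRCm38.p6), 5′ to 3′ on the strand of the gene, with motif matches in capitals. Hoxb1 is on the plus strand of chr11:96365508-96365757, Hoxa2 on the minus strand of chr6:52164832-52165081, Hoxd13 on the plus strand of chr2:74667975-74668224 and Hoxa13 on the minus strand of chr6:52260881-52261130.
Hoxb1: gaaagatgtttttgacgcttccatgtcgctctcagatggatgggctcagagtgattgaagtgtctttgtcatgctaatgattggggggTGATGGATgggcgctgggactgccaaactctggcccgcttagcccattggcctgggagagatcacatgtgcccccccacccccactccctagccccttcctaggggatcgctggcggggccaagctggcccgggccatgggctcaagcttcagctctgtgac
Hoxa2: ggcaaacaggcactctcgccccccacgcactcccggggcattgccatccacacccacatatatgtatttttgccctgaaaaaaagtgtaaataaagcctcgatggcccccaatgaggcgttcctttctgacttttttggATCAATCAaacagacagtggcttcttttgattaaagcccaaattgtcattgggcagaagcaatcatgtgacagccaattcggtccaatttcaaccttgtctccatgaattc
Hoxd13: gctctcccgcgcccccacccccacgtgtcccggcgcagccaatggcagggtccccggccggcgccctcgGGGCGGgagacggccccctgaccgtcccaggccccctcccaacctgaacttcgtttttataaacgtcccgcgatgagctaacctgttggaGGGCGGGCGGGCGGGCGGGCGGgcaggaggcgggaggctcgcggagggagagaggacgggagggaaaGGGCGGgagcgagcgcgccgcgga
Hoxa13: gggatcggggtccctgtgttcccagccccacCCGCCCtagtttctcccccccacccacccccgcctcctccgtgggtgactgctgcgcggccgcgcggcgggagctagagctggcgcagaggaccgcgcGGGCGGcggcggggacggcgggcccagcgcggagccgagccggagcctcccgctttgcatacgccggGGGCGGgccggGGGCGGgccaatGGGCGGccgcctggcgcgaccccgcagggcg
Searches of both strands covered TGATNNAT (bound by HOX and PBX together), AGGTCA (retinoic acid receptors), TTTATGG (CDX), the palindrome bound by paired-type homeodomain dimers, the class to which Mixl1 belongs, and GGGCGG (GC box). Upstream windows were held for 25 of the 45 members, 27 windows in all, of 32851. The capitals of Hoxb1 and Hoxa2 are TGATNNAT matches, whose first bases lie at -162 and -111 from the start. TGATNNAT occurred in 7.68% of all windows and, among the members, upstream of Hoxa2, Hoxb1, Hoxb8 and Hoxd11. All capitals of Hoxd13 and Hoxa13 are GC boxes, with 7 matches for Hoxd13, of which 5 overlap one another, and 5 for Hoxa13. The GC box was held by 32.7% of all windows and by those of 10 members: Hoxa6, Hoxa9, Hoxa10, Hoxa13, Hoxb8, Hoxc4, Hoxd1, Hoxd9, Hoxd11 and Hoxd13. Of these, Hoxb8, Hoxc4 and Hoxd1 were called higher at day 4 between the induced groups. AGGTCA was held by 14% of all windows and by those of Hoxb4, Hoxc4, Hoxd3, Hoxd4, Hoxd8 and Hoxd10. TTTATGG was found in 2.43% of all windows and, of the members, upstream of Hoxd4. The paired-type palindrome, found in 0.463% of all windows, was in no member window. The window of Hoxb1 held 7 CG dinucleotides and that of Hoxa2 held 6, against 31 for Hoxd13 and 35 for Hoxa13, where the median was 13 over the member windows and 6 over all windows. Windows of members called higher at day 4 between the induced groups ranged from 3, for Hoxd4, to 24, for Hoxd1. The 4 windows shown therefore do not stand for all members that moved. A match of letters is a description and shows no binding.

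Transcripts of 44 members were counted in at least 1 library, and Hoxc12 had no count in any. Levels are compared between genes in TPM, which correct for gene length and library size. Averaged over the 12 libraries, Hoxb1, a gene of the earliest posterior epiblast and of hindbrain rhombomere patterning, had the highest level, at 67.3 TPM. Hoxb9 followed at 54.4 TPM, Hoxa2, which patterns the second branchial arch, at 47.3 TPM and Hoxb8 at 33.3 TPM. Hoxc6 was the highest member of HoxC at 23.3 TPM and Hoxd9 the highest of HoxD at 10.8 TPM. These means rest in part on NoDox_d4 replicate 1. Without it Hoxc6 was still the highest of HoxC, at 13.2 TPM, but in HoxD Hoxd1 led at 3.17 TPM, above Hoxd9 at 2.98 TPM, and Hoxb9 at 41.4 TPM came after Hoxa2 at 47.4 TPM. At the low end, Hoxc13, Hoxd13, Hoxd11, Hoxa13, Hoxd12 and the transcript Hoxa11os were each at 0.548 TPM or lower. The order was not the same in each group. In NoDox_d2 Hoxb1 led at 99.6 ± 6.22 TPM (SD, n = 3), above Hoxa2 at 45.2 ± 13.8 TPM. In D1Dox_d2 Hoxb1 at 26.3 ± 4.71 TPM was above Hoxb9 at 23.2 ± 4.004 TPM in each of the 3 libraries, by less than the spread between libraries. In D3Dox_d4 Hoxb1 at 71.5 ± 3.36 TPM and Hoxa2 at 69.1 ± 4.27 TPM did not keep the same order in all libraries (SD, n = 3). In NoDox_d4 Hoxb9 had the highest mean, 97.8 TPM, which rests on replicate 1: over replicates 2 and 3 Hoxa2 led at 74.9 TPM, then Hoxb1 at 63.5 TPM and Hoxb9 at 48.0 TPM.

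Summed by cluster, HoxB gave 93.1 ± 11.9 TPM in D1Dox_d2, 290 ± 33.2 TPM in D3Dox_d4 and 212 ± 23.2 TPM in NoDox_d2 (SD, n = 3), and HoxA was second in each of these groups. HoxD was the lowest in D1Dox_d2 and D3Dox_d4, at 3.69 ± 0.72 and 13.7 ± 3.73 TPM. In NoDox_d2 HoxD summed to 27.5 TPM in replicate 1, above HoxC at 23.3 TPM, but to 5.25 and 7.78 TPM in the others, below HoxC at 22.2 and 26.2 TPM. In NoDox_d4 the cluster sums rest on replicate 1: HoxD summed to 231 TPM there and to 9.78 and 10.5 TPM in the others, and HoxC to 470 TPM there and to 38.6 and 50.6 TPM in the others.

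By paralog number, the anterior genes (groups 1 to 3) summed to 65.7, 59.5 and 46.3 TPM in D1Dox_d2, against 222, 215 and 206 TPM in NoDox_d2, so the groups did not overlap. The central genes (groups 4 to 8) summed to 61.0, 56.8 and 53.1 TPM in D1Dox_d2 and to 150, 92.6 and 99.0 TPM in NoDox_d2, again without overlap. The posterior genes (groups 9 to 13) overlapped, at 59.5, 47.7 and 46.3 TPM in D1Dox_d2 and 74.4, 44.2 and 48.2 TPM in NoDox_d2. At day 4 with doxycycline the anterior, central and posterior sums were 234 ± 10.1, 266 ± 38.1 and 111 ± 19.9 TPM (SD, n = 3). Anterior genes made up 31.8% to 36.3% of the coding Hox TPM in D1Dox_d2, 35.3% to 41.6% in D3Dox_d4 and 49.7% to 61.1% in NoDox_d2. Posterior genes made up 29.1% to 32.0% in D1Dox_d2, 16.96% to 19.8% in D3Dox_d4 and 12.6% to 16.7% in NoDox_d2. In NoDox_d4 the anterior share was 18.2% in replicate 1 and 53.9% and 52.8% in the others.

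**Figure D1:**
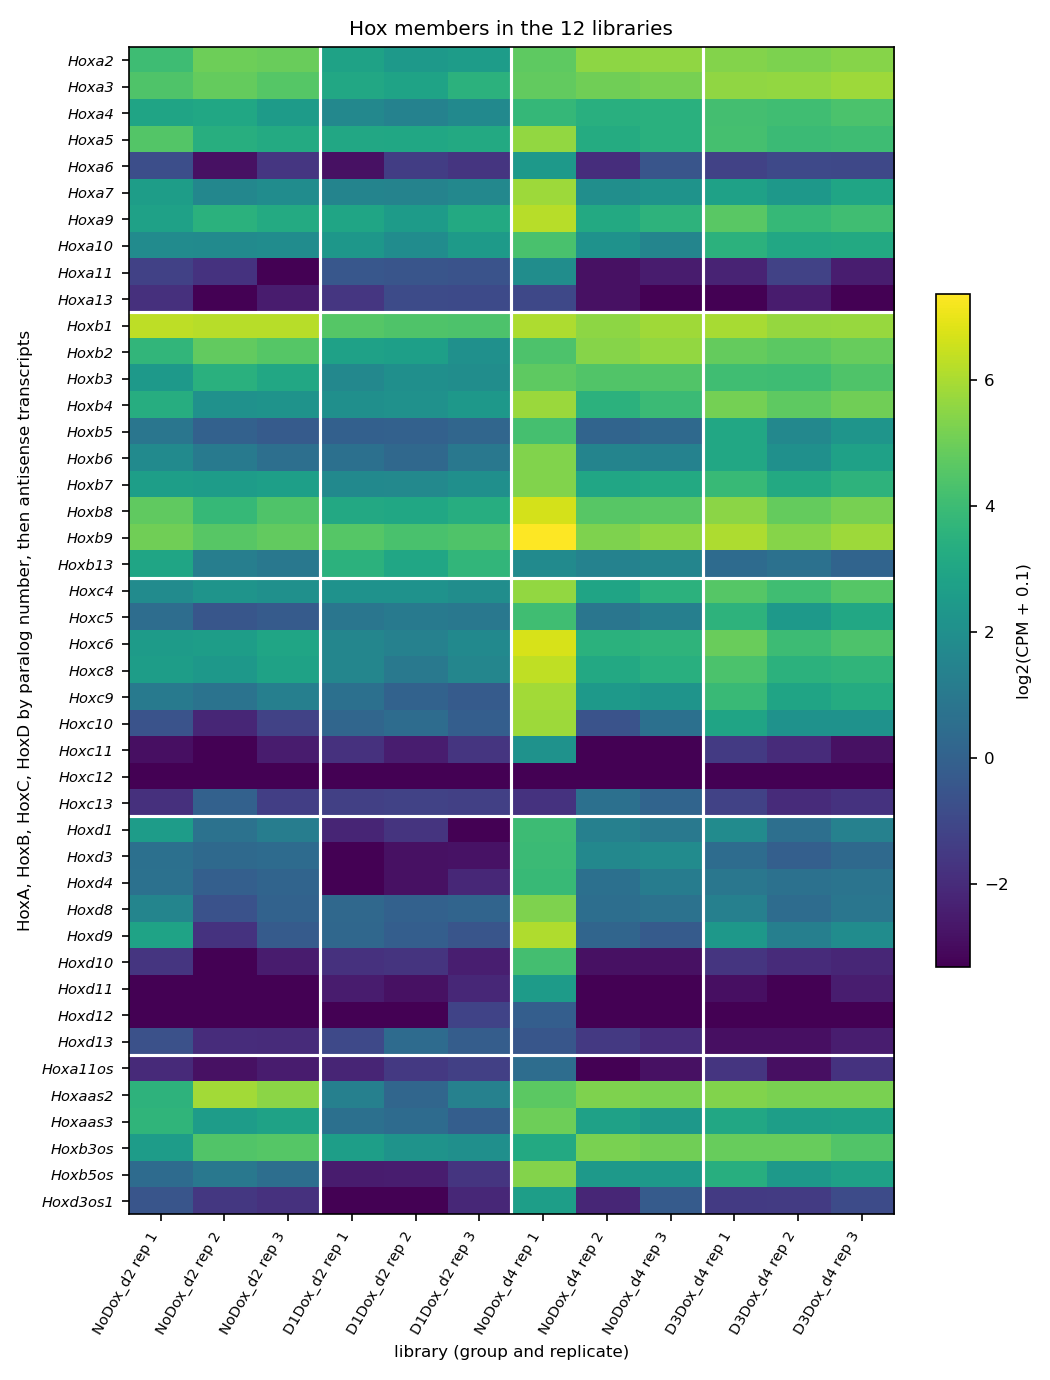
Level of 44 of the 45 Hox members (rows, by cluster and paralog number, then the 6 antisense transcripts) in the 12 libraries (columns, by group), as log2(CPM + 0.1). Anterior members are darker in the 3 D1Dox_d2 libraries than in the other groups, and the column of NoDox_d4 replicate 1 is the brightest for most central and posterior members, with Hoxa4 and the genes of paralog group 13 among the exceptions.

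**Figure D2:**
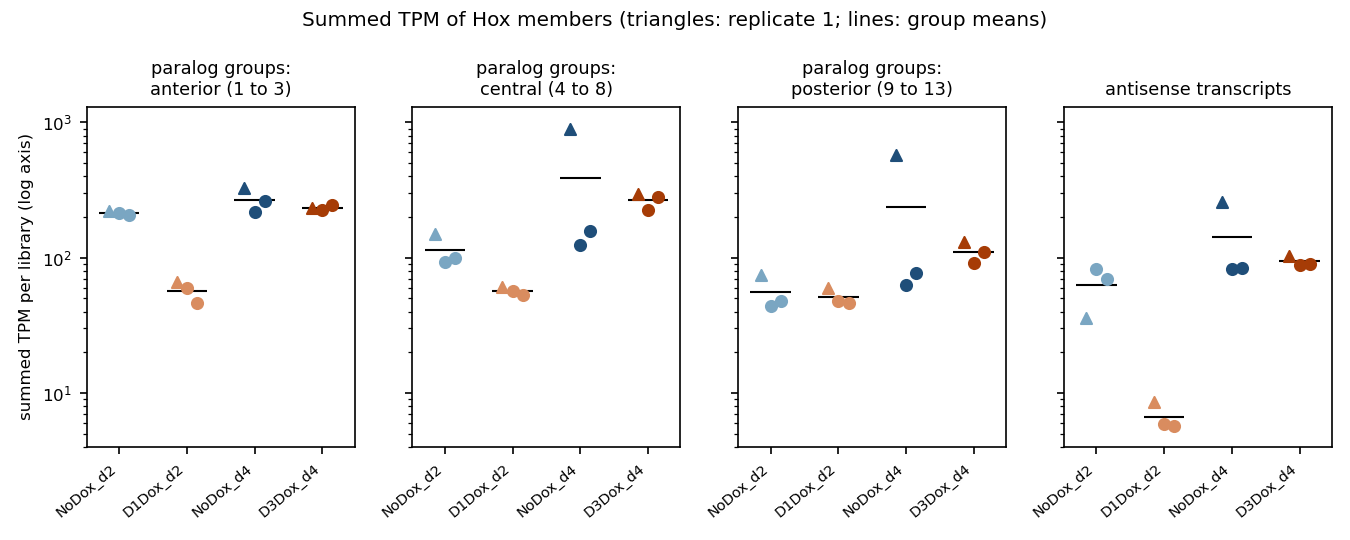
Summed TPM (log axis) of anterior, central and posterior Hox genes and of the antisense transcripts in each library, where triangles are replicate 1 and lines are means of 3 libraries. Anterior sums of 46.3 to 65.7 TPM in D1Dox_d2 lie below all other libraries, and NoDox_d4 replicate 1 is the highest point in each panel.

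With doxycycline at day 2, anterior Hox genes and antisense transcripts fell. Differences between groups were tested with edgeR on the counts of 39 members that passed its filter on low counts, and calls needed an edgeR p under 0.05 after Benjamini-Hochberg adjustment over the 18109 genes tested. In D1Dox_d2 against NoDox_d2, 13 members were called lower, where 13.4% of all genes were, and 1 was called higher, where 14.9% were. The median log2 fold change was -0.91 over the 39 members and -0.03 over all genes. The falls were those of 7 anterior genes, of 4 of the 5 antisense transcripts and of 2 of the 15 central genes, Hoxa4 and Hoxd4. The 1 riser was Hoxb13, of the 11 posterior genes. The libraries of both groups did not overlap for 21 members that were lower, where 22.1% of all genes did not, and for 6 that were higher, where 23.9% did not.

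Hoxb1 was at 79.1, 73.4 and 75.1 CPM in NoDox_d2 and at 23.5, 21.2 and 20.9 CPM in D1Dox_d2. No library of one group reached the other, and Hoxb1 fell by 1.79 ± 0.13 (log2 fold change ± SE, edgeR adjusted p = 4.06e-06). Hoxaas2, a transcript that starts between Hoxa2 and Hoxa3 and runs against Hoxa3, was at 11.9, 59.0 and 44.8 CPM in NoDox_d2 and at 2.39, 1.06 and 2.47 CPM in D1Dox_d2. Replicate 1 of NoDox_d2 was its lowest uninduced library and still above all D1Dox_d2 libraries, and Hoxaas2 fell by 4.29 ± 0.53 on the log2 scale (edgeR adjusted p = 0.00016).

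Hoxa3, which patterns the third branchial arch and its thymus and parathyroid derivatives, was at 21.3, 28.3 and 23.6 CPM in NoDox_d2 and at 8.49, 7.32 and 11.5 CPM in D1Dox_d2. It fell by 1.42 ± 0.18 on the log2 scale (edgeR adjusted p = 0.000183). Hoxa2 was at 16.7, 32.5 and 30.3 CPM in NoDox_d2 and at 6.97, 5.33 and 5.89 CPM in D1Dox_d2, a fall of 2.12 ± 0.27 (edgeR adjusted p = 0.000227). Hoxa4, the first of the central genes in HoxA, was at 7.56, 8.22 and 5.73 CPM without and at 3.11, 2.56 and 3.25 CPM with doxycycline. It dropped by 1.27 ± 0.19 (edgeR adjusted p = 0.000614). For all 3 genes the groups did not overlap.

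Hoxd1, Hoxd3 and Hoxd4 were almost silent in D1Dox_d2, where Hoxd8 gave 30, 22 and 23 counts and Hoxd9 29, 20 and 14 counts. Hoxd3 gave 0, 1 and 1 counts there and 41, 29 and 33 counts in NoDox_d2, a count ratio of 47.4 in favour of NoDox_d2 after scaling (exact 95% interval 12.8 to 397, counting error only; edgeR adjusted p = 0.00189). Hoxd1 gave 3, 5 and 0 counts against 169, 39 and 59, with a log2 fold change of -4.85 ± 1.11 (edgeR adjusted p = 0.00777). Hoxd4 gave 0, 1 and 3 counts against 42, 21 and 27 (log2 fold change -4.23 ± 1.13, edgeR adjusted p = 0.017). In these gene models 62.3% of the exon bases of Hoxd3 and 52.3% of those of Hoxd4 are shared with a gene on the same strand, so their counts are uncertain.

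In HoxB, Hoxb2 fell by 1.87 ± 0.34 and Hoxb3 by 1.21 ± 0.24 on the log2 scale (edgeR adjusted p = 0.00221 and 0.0033). The transcripts Hoxaas3, Hoxb5os and Hoxb3os fell by 2.87 ± 0.64, 3.53 ± 1.01 and 1.81 ± 0.55 (edgeR adjusted p = 0.00707, 0.0231 and 0.0293). Counting used no strand, and 76.2% of the exon bases of Hoxb3os lie against Hoxb3 or Hoxb2, as do 52.9% of those of Hoxb3 against Hoxb3os, so reads of these partners cannot be told apart. The calls of Hoxb3os, Hoxb5os and Hoxd4 each ended when 1 of several libraries was left out, with edgeR adjusted p of 0.0505 to 0.101, 0.0511 to 0.0769 and 0.0584 to 0.0607. For Hoxb3os these were any D1Dox_d2 library or NoDox_d2 replicate 2 or 3, for Hoxb5os any D1Dox_d2 library or NoDox_d2 replicate 2, and for Hoxd4 D1Dox_d2 replicate 1 or 2.

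The fit without the uninduced libraries numbered 1 called 18 members lower and 6 higher, where 26.4% and 26.8% of all genes were. All 13 falls remained among the 18, which also took in Hoxb7, Hoxb8, Hoxc6 and Hoxc8.

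Hoxb13, a gene of the tail end of the axis and of the prostate, went the other way. It was at 11.6, 7.97 and 13.1 CPM in D1Dox_d2 and at 7.73, 2.29 and 1.86 CPM in NoDox_d2, and the lowest induced library was just above NoDox_d2 replicate 1. Hoxb13 rose by 1.45 ± 0.45 (edgeR adjusted p = 0.0324; exact permutation p = 0.1, two-sided, the smallest that 3 against 3 libraries can give). Without both uninduced libraries numbered 1 the log2 fold change was 2.38 ± 0.24, and without NoDox_d2 replicate 1 alone it was 2.37. The call ended without D1Dox_d2 replicate 1 or 3, without NoDox_d2 replicate 2 or 3 and in a fit of only the libraries compared, with adjusted p of 0.0805 to 0.112.

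Members that rose in the fit without both libraries but not with all 12 were Hoxa11, Hoxa13, Hoxc5, Hoxc10 and Hoxd13. Of these, Hoxd13 was also called without NoDox_d2 replicate 1 alone, and Hoxc5 and Hoxc10 without NoDox_d4 replicate 1 alone. Hoxa13 and Hoxd13 are paralogs of Hoxb13, so 3 of the 4 genes of paralog group 13 were called higher there, while Hoxc13 was not called (log2 fold change -0.94 ± 0.54). In the libraries kept outside D1Dox_d2, Hoxa11, Hoxa13 and Hoxd13 were at 0.332, 0.0744 and 0.244 CPM or less. Their passing of the filter thus leaned on D1Dox_d2, the group where they were high, and their calls add nothing to these levels. Fibroblast feeder markers rose at day 2 as well, for 10 of 13, where 14.9% of all genes rose. They summed to 1882 to 2308 CPM in D1Dox_d2 and to 282 to 441 CPM in NoDox_d2. Without the uninduced libraries numbered 1 all 13 rose, where 26.8% of all genes did. At day 4 these markers summed to 497 to 584 CPM in D3Dox_d4 and to 810, 198 and 206 CPM in NoDox_d4. Col1a2 alone gave 307, 352 and 370 CPM of the D3Dox_d4 sums. It was called higher with doxycycline at day 4 (log2 fold change 2.96), while the other called markers of the list, such as Dcn (-2.27), were lower. Paralog group 13 was lower with doxycycline at day 4, at 1.98, 2.44 and 1.75 TPM in sum against 6.20, 5.08 and 5.17 TPM. Of 7 Y-linked genes, 3 were tested and called higher at day 2. The list summed to 4.15 to 5.29 CPM in D1Dox_d2 and 0.277 to 1.06 CPM in NoDox_d2, with 3 of the 7 at 0 in all libraries of each of these groups. No library outside D1Dox_d2 exceeded 1.06 CPM in this sum. Passing the filter thus leaned on D1Dox_d2, and these 3 calls add nothing to the sums. The part of these markers in the higher levels of paralog group 13 was not tested. With all 12 libraries, markers of paraxial mesoderm fell at day 2 for 5 of the 6 tested, and neural tube markers fell for 4 of 8 and rose for 2. Caudal epiblast markers fell for 5 of 7, and of 8 primitive streak markers, which include Mixl1, 2 rose and 3 fell. Of all genes 13.4% fell and 14.9% rose. The caudal epiblast markers summed to 1893 CPM in NoDox_d2 replicate 1 and to 446 and 484 CPM in the others of its group. The gene T, which is also in the primitive streak list, alone gave 1261 CPM of the sum in replicate 1. The part of the caudal epiblast markers in the falls of the anterior Hox genes was not tested.

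**Figure D3:**
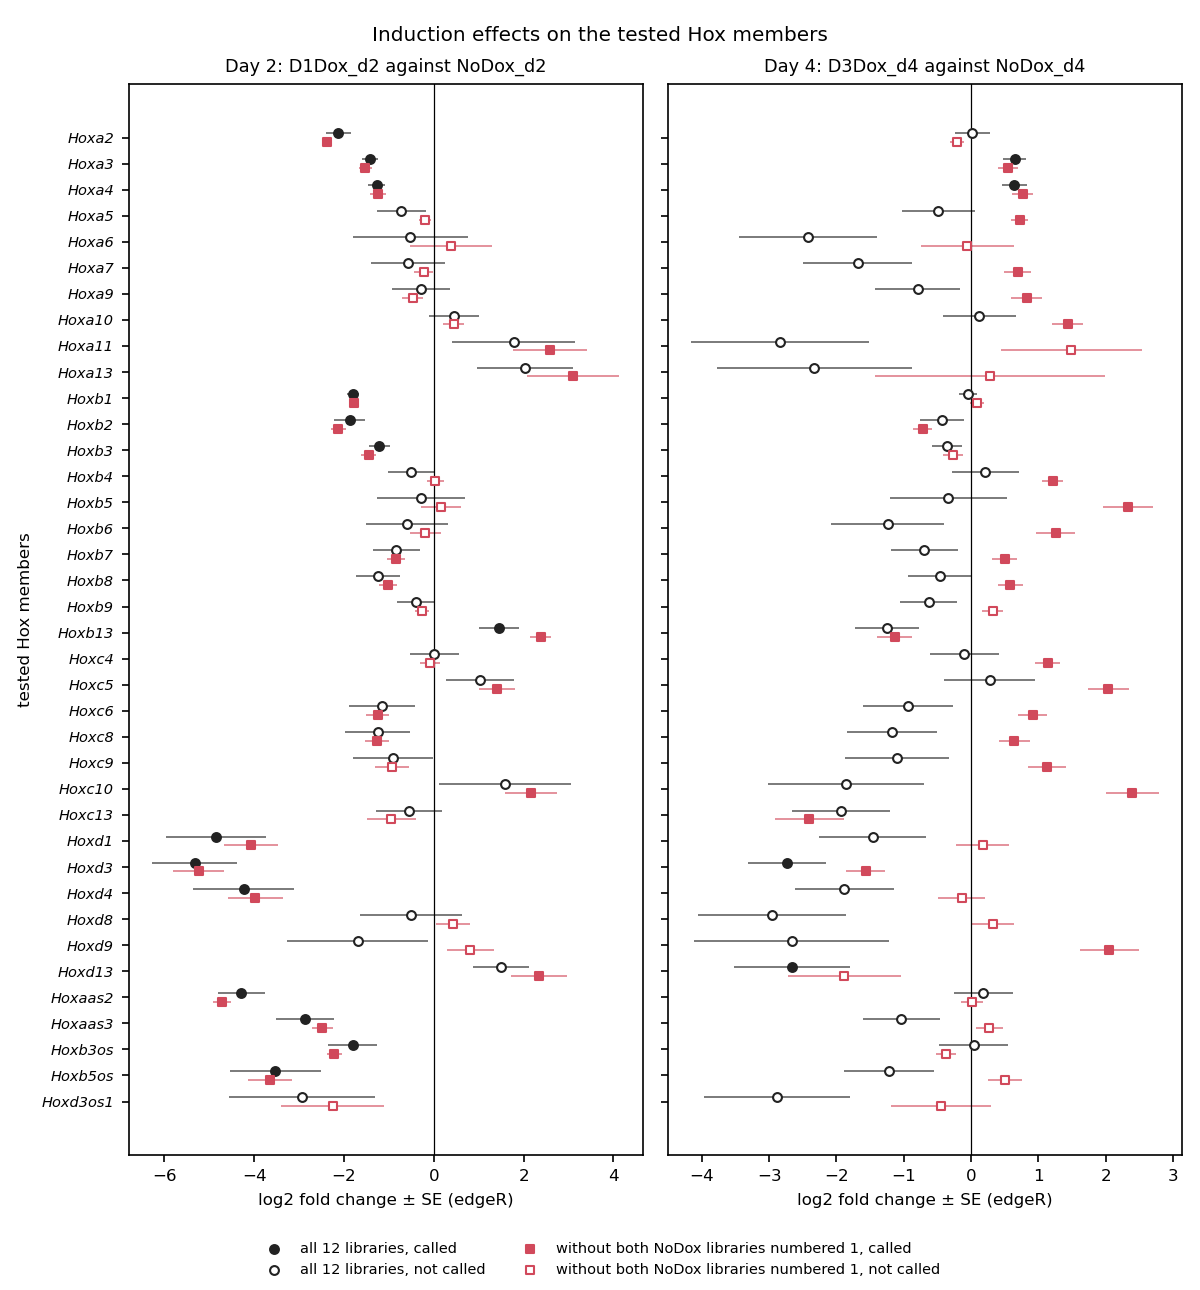
Log2 fold change ± SE (edgeR) of 38 of the 39 tested Hox members with doxycycline at day 2 (left) and day 4 (right), for all 12 libraries (circles) and without the uninduced libraries numbered 1 (squares), filled where called. At day 2 both fits place the anterior and antisense members below 0, and at day 4 most central and posterior members lie below 0 with all libraries and above 0 without these.

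At day 4, Hoxa3 and Hoxa4 rose with doxycycline and Hoxd3 and Hoxd13 fell. In D3Dox_d4 against NoDox_d4, 2 of 39 members were called higher, where 13.4% of all genes were, and 2 lower, where 10.2% were. Hoxa3 was at 47.9, 49.0 and 55.8 CPM with and at 27.96, 33.3 and 36.4 CPM without doxycycline. Hoxa4 was at 18.04, 16.8 and 20.3 CPM with and at 13.6, 10.6 and 10.99 CPM without. Neither gene's groups overlapped, and the rises were 0.65 ± 0.17 and 0.64 ± 0.18 on the log2 scale (edgeR adjusted p = 0.0186 and 0.0232). The call of Hoxa3 ended without D3Dox_d4 replicate 3 (adjusted p = 0.0752). That of Hoxa4 ended without the filter and without D3Dox_d4 replicate 1 or 3 or NoDox_d4 replicate 2 or 3 (adjusted p of 0.0522 to 0.0979).

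Hoxd3 was at 1.27, 0.848 and 1.15 CPM in D3Dox_d4 and at 15.4, 3.05 and 3.42 CPM in NoDox_d4, where replicate 1 was far above the others. It fell by 2.74 ± 0.58 with all libraries (edgeR adjusted p = 0.00536) and by 1.57 ± 0.29 without both uninduced libraries numbered 1 (edgeR adjusted p = 0.000602). Hoxd13, which patterns digits and the genital bud, gave 1, 1 and 2 counts in D3Dox_d4 and 16, 6 and 4 counts in NoDox_d4. Its log2 fold change was -2.66 ± 0.86 (edgeR adjusted p = 0.0431), and the call was lost without NoDox_d4 replicate 1 (0.17), without NoDox_d4 replicate 2 (0.0554) and without each of the D3Dox_d4 libraries (0.0814 to 0.126). It was lost too without D1Dox_d2 replicate 3, which enters only through the shared fit.

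Counts at day 4 turned on NoDox_d4 replicate 1. With all 12 libraries, 31 of the 39 members had a log2 fold change below 0, with a median of -1.002 against -0.03 over all genes. Without NoDox_d4 replicate 1 alone, 27 members lay above 0, the median was 0.50 and 11 were called higher and 2 lower, where 13.2% and 9.63% of all genes were. Without both uninduced libraries numbered 1, 18 members were called higher and 4 lower, where 20.6% and 17.9% of all genes were. Those 18 comprised 12 of the 15 central genes, 5 posterior genes and, of the anterior genes, Hoxa3. Examples are Hoxb5 at 2.33 ± 0.38, Hoxc5 at 2.04 ± 0.30, Hoxc10 at 2.39 ± 0.39, Hoxd9 at 2.05 ± 0.43 and Hoxb4 at 1.21 ± 0.16 on the log2 scale, all called in that fit (edgeR adjusted p of 2.8e-05 to 0.00167). The lower members were Hoxd3, Hoxb2, Hoxb13 and Hoxc13, the last with a log2 fold change of -2.40 ± 0.51. Groups did not overlap with all libraries for 2 members that were higher (Hoxa3 and Hoxa4) and 4 that were lower (Hoxb3, Hoxb13, Hoxd3 and Hoxd13), where 22.0% and 18.6% of all genes did not.

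The effect of doxycycline differed between the days for 7 members. The test of the difference (day 4 effect minus day 2 effect) called 5 members higher, where 6.66% of all genes were, and 2 lower, where 6.24% were. It was 1.75 ± 0.18 for Hoxb1, 2.07 ± 0.25 for Hoxa3, 1.91 ± 0.26 for Hoxa4, 2.14 ± 0.37 for Hoxa2 and 4.47 ± 0.68 for Hoxaas2 on the log2 scale (edgeR adjusted p of 0.000335 to 0.0047). These 5 had fallen at day 2. At day 4 Hoxb1 stood at 62.3, 51.1 and 52.0 CPM with and 67.1, 47.3 and 56.6 CPM without doxycycline, so that its groups overlapped (log2 fold change -0.05 ± 0.13). Hoxa2 and Hoxaas2 likewise had day 4 values near 0, at 0.02 ± 0.26 and 0.18 ± 0.44, with 41.9, 37.7 and 42.3 CPM and 40.3, 37.6 and 37.1 CPM in D3Dox_d4. The difference was -2.70 ± 0.66 for Hoxb13 and -4.15 ± 1.07 for Hoxd13 (edgeR adjusted p = 0.0217 and 0.0267), and both calls ended when 1 of several libraries was left out, with adjusted p of 0.0501 to 0.061 and 0.0533 to 0.0707. For Hoxb13 these were D1Dox_d2 replicate 3 and D3Dox_d4 replicates 1 and 3. For Hoxd13 they were every D3Dox_d4 library, NoDox_d4 replicate 1 and replicates 2 and 3 of D1Dox_d2 and of NoDox_d2. Hoxd13 passed the filter mainly through D1Dox_d2, where it was high, so this call adds nothing to its counts. Without both uninduced libraries numbered 1, 27 members were called higher and 2 lower, where 18.7% and 15.8% of all genes were.

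**Figure D4:**
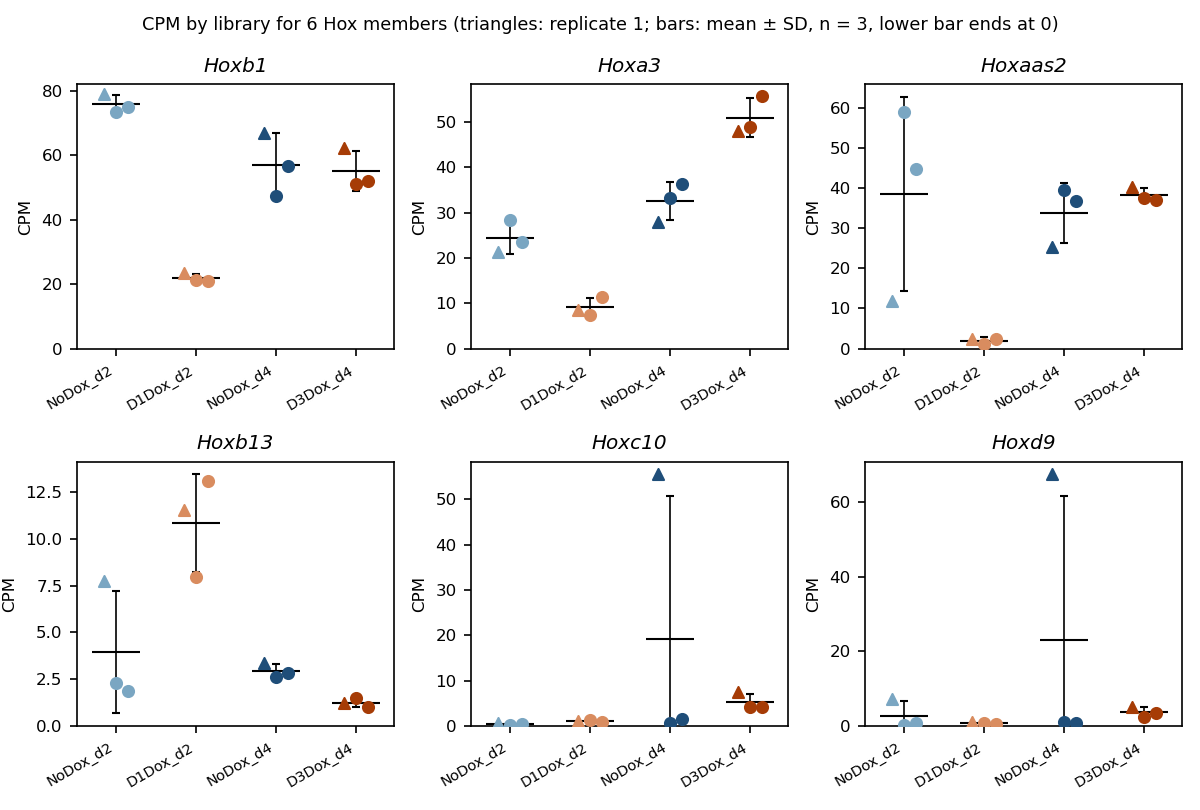
CPM in each library for Hoxb1, Hoxa3, Hoxaas2, Hoxb13, Hoxc10 and Hoxd9, with mean ± SD of 3 libraries (lower bars end at 0) and triangles for replicate 1. Hoxb1, Hoxa3 and Hoxaas2 are lowest in D1Dox_d2 and Hoxb13 is highest there, and the NoDox_d4 triangles of Hoxc10 at 55.5 CPM and Hoxd9 at 67.5 CPM stand above all other libraries.

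Between the induced groups, most tested members were higher at day 4. In D3Dox_d4 against D1Dox_d2, 22 of 39 members rose, where 22.6% of all genes did, and 3 fell, where 21.4% did. This comparison shares its groups with both induction effects and differs in the time and in the group label's D number, which cannot be told apart. The median was 2.26 over the members and 0.00 over all genes. Groups did not overlap for 34 members that were higher and 4 that were lower, against 33.7% and 32.0% of all genes. Without the uninduced libraries numbered 1, which here enter only through the shared spread, 33 members rose and 4 fell, where 31.7% and 30.1% of all genes did.

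Of the anterior genes 7 rose. Hoxa3 went from 8.49, 7.32 and 11.5 CPM to 47.9, 49.0 and 55.8 CPM, a rise of 2.48 ± 0.18 on the log2 scale (edgeR adjusted p = 4.38e-06). Hoxb1 rose by 1.33 ± 0.13 (2.72e-05) and Hoxa2 by 2.74 ± 0.28 (3.29e-05, both edgeR adjusted p). Hoxb3, a hindbrain and branchial arch gene, rose by 2.36 ± 0.24 (edgeR adjusted p = 3.33e-05), from 3.07, 3.95 and 3.68 CPM to 17.03, 16.4 and 21.4 CPM. Hoxb2 rose by 2.26 ± 0.34, Hoxd1 by 4.45 ± 1.11 and Hoxd3 by a count ratio of 40.3 (exact 95% interval 10.8 to 338).

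Among the 15 central genes 9 rose: Hoxa4, Hoxb4, Hoxb7, Hoxb8, Hoxc4, Hoxc5, Hoxc6, Hoxc8 and Hoxd4. Hoxa4 went from 3.11, 2.56 and 3.25 CPM to 18.04, 16.8 and 20.3 CPM, a rise of 2.62 ± 0.19 (edgeR adjusted p = 4.38e-06). Hoxc6, the highest member of HoxC, went from 2.88, 2.52 and 3.29 CPM to 30.5, 16.1 and 20.6 CPM, a rise of 2.95 ± 0.74 (edgeR adjusted p = 0.00805). All 4 genes of paralog group 4 rose, by 2.38 to 4.78 on the log2 scale. Of the 11 posterior genes tested, Hoxb9 rose by 1.34 ± 0.43 and Hoxc9 by 3.35 ± 0.89 (edgeR adjusted p = 0.0265 and 0.0107). Calls that ended when 1 of several libraries of D1Dox_d2 or D3Dox_d4 was left out were those of Hoxb7 (adjusted p of 0.0573 to 0.0625), Hoxb9 (0.0582 to 0.0836), Hoxc5 (0.0556 to 0.0898) and Hoxc8 (0.0501 to 0.0604). In each of these, leaving out D1Dox_d2 replicate 2 or D3Dox_d4 replicate 1 ended the call.

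Of the antisense transcripts, Hoxb5os rose by 5.89 ± 0.97, Hoxaas2 by 4.28 ± 0.53, Hoxaas3 by 2.62 ± 0.64 and Hoxb3os by 2.47 ± 0.55 on the log2 scale (edgeR adjusted p of 0.000114 to 0.00697). Hoxb5os went from 0.0758, 0.0814 and 0.217 CPM to 10.3, 5.38 and 6.88 CPM. Hoxb5, on the opposite strand, had a log2 fold change of 2.52 ± 0.96 that missed the threshold (edgeR adjusted p = 0.0518).

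The 3 members that fell all belong to paralog group 13. Hoxb13 went from 11.6, 7.97 and 13.1 CPM to 1.23, 1.48 and 0.995 CPM, a fall of 3.13 ± 0.49 on the log2 scale (edgeR adjusted p = 0.000506). Hoxd13 went from 11, 30 and 18 counts to 1, 1 and 2 counts, a fall of 3.88 ± 0.80 (edgeR adjusted p = 0.00278). Hoxa13, which patterns distal limb and genital tissue, went from 6, 11 and 10 counts to 0, 2 and 0 counts, a ratio of 14.6 in favour of D1Dox_d2 (exact 95% interval 3.66 to 126; edgeR adjusted p = 0.0395). The call of Hoxa13 ended without each D1Dox_d2 library and without D3Dox_d4 replicate 1 or 3 (adjusted p of 0.0548 to 0.122), as well as without NoDox_d2 replicate 3, and its fitted log2 fold change moved to -6.26 without D3Dox_d4 replicate 2. Hoxc13 was not called (-0.46 ± 0.78). Hoxa13 and Hoxd13 passed the filter on low counts mainly through D1Dox_d2, the group where they were high, so their calls add nothing to their counts. Fibroblast feeder markers fell between the same groups for 10 of 13, where 21.4% of all genes fell, from 1882 to 2308 CPM in sum to 497 to 584 CPM. The Y-linked sum was 0, 0.221 and 0 CPM in D3Dox_d4, with 5 of the 7 genes at 0 in all its libraries. Their part in the falls of paralog group 13 was not tested.

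Without doxycycline, 12 of 39 members rose from day 2 to day 4, where 5.09% of all genes did, and none fell, where 5.55% did. DESeq2 called 1 member lower, where 1427 of 18027 genes were, and 27 members had an unadjusted edgeR p under 0.05 in either direction. The risers were Hoxa4, Hoxb3, Hoxb4, Hoxb9, the transcript Hoxb5os, Hoxd3 and 6 of the 7 tested HoxC genes: Hoxc4, Hoxc5, Hoxc6, Hoxc8, Hoxc9 and Hoxc10. With the replicate number as a block among the 6 uninduced libraries, 11 of 36 members were called higher, where 5.59% of all genes were, and 0 lower, where 6.03% were. The labels do not say that these numbers pair the libraries. Those called there included Hoxa2, Hoxa6, Hoxb2, Hoxb3, Hoxb3os, Hoxb4, Hoxb5os, Hoxc5, Hoxc10 and Hoxd3. Lost under it were Hoxa4, Hoxb9, Hoxc4, Hoxc6, Hoxc8 and Hoxc9, with adjusted p of 0.0512 to 0.15.

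Hoxb3 was at 5.44, 10.99 and 8.37 CPM at day 2 and at 26.1, 22.2 and 21.9 CPM at day 4, a rise of 1.503 ± 0.23 (edgeR adjusted p = 0.00216). Hoxb5os went from 1.24, 1.82 and 1.34 CPM to 41.9, 5.37 and 5.26 CPM (3.58 ± 0.75, edgeR adjusted p = 0.0108). Hoxc4 went from 3.50, 4.55 and 4.02 CPM to 48.9, 7.44 and 11.7 CPM (2.50 ± 0.55, edgeR adjusted p = 0.0144). In both, replicate 1 at day 4 was the highest by far, and the other day 4 libraries were still above all day 2 libraries.

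Hoxd3 and Hoxc9 had the same shape. Hoxd3 went from 1.45, 1.15 and 1.23 CPM to 15.4, 3.05 and 3.42 CPM (2.51 ± 0.57, edgeR adjusted p = 0.0163). Hoxc9 went from 1.94, 1.58 and 2.38 CPM to 58.9, 5.20 and 4.53 CPM (3.53 ± 0.86, edgeR adjusted p = 0.0237). Groups did not overlap for 13 members that were higher, where 11.5% of all genes did not, and for 1 that was lower, Hoxb1, where 11.7% did not.

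Sizes in this comparison rest on NoDox_d4 replicate 1. Without both uninduced libraries numbered 1, 15 members were called higher and 1 lower, where 13.4% and 11% of all genes were. Of the 12 risers 11 remained, and Hoxc8 was lost (0.66 ± 0.27, edgeR adjusted p = 0.0864). The log2 values of those that remained were smaller for each: 1.75 for Hoxb5os, 1.16 for Hoxc4, 1.44 for Hoxd3, 1.29 for Hoxc9 and 2.10 in place of 5.78 for Hoxc10. Hoxb1 fell in this fit by 0.51 ± 0.12 (edgeR adjusted p = 0.00493), from 73.4 and 75.1 CPM to 47.3 and 56.6 CPM. In a fit of only the 6 uninduced libraries without a block, 0 of 36 members were called, where 0.506% of all genes were higher and 0.735% lower. In that fit 17 members had an unadjusted edgeR p under 0.05. DESeq2 on all libraries called 16 higher, where 1344 of 18027 genes were. Hoxb3, Hoxb5os and Hoxc4 stayed called whichever single uninduced library was left out, and the call of each of the other 9 ended without at least 1 of them. Without NoDox_d2 replicate 1, 2 or 3 the count of risers was 8, 4 and 3, where 5.24%, 3.78% and 2.74% of all genes rose. Without NoDox_d4 replicate 1, 2 or 3 it was 11, 20 and 13, where 9.05%, 3.26% and 2.80% did.

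NoDox_d4 replicate 1 held the highest CPM of all 12 libraries for 33 of the 45 members. Its level was above both other libraries of its group for 38 members, below both for 6, and at least 10-fold above their mean for 9 of the 37 members with over 3 counts in those 2 libraries, with a median of 5.12-fold. This excess differed along the clusters. The anterior genes had a median of 1.24-fold, the central genes of 8.19-fold and the posterior genes of 5.42-fold. These medians cover all 8 anterior and 15 central genes but only 9 of the 16 posterior genes. Posterior genes left out had few counts in replicates 2 and 3, and those detected in replicate 1 had count ratios of 13.97 or more. The medians therefore do not order the central and the posterior genes.

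Hoxd9 was at 67.5 CPM in replicate 1 and at 1.02 and 0.730 CPM in the others. Hoxc10 was at 55.5 CPM against 0.569 and 1.42 CPM, and Hoxa7 at 55.4 CPM against 3.78 and 4.38 CPM. Hoxd8 was at 39.1 CPM against 1.34 and 1.54 CPM. Members that did not pass the filter on low counts showed the same contrast. Hoxd10 gave 458 counts against 1 and 1, a ratio of 457 (exact 95% interval 126 to 3786). Hoxd11 gave 146 counts against none, so it was at least 97.1-fold higher than the floor of 3 counts over both libraries. By the same floor Hoxc11 with 107 counts was at least 71.2-fold and Hoxd12 with 21 counts at least 13.97-fold higher. Hoxa11, which passed the filter, gave 94 counts against 3, a ratio of 62.5 (20.8 to 309).

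Paralog group 2 went the other way. Hoxa2 was at 26.3 CPM in replicate 1 and at 46.2 and 47.8 CPM in the others, and Hoxb2 at 21.0 CPM against 43.0 and 49.0 CPM. Also lower were Hoxaas2, Hoxa3, Hoxb3os at 8.83 CPM against 36.7 and 33.2 CPM, and Hoxc13 at 0.197 CPM against 1.42 and 0.999 CPM. Paralog group 13 summed to 6.20 TPM in replicate 1 against 5.08 and 5.17 TPM. Of the Hox regulators, Cdx2 was at 127 CPM in this library and at 37.8 CPM or less in the others of both NoDox groups except NoDox_d2 replicate 1, at 241 CPM. Feeder markers summed to 810 CPM in this library against 198 and 206 CPM, and neural tube markers to 240 CPM against 840 and 924 CPM. The part of these in its Hox levels was not tested.

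NoDox_d2 replicate 1, which has the same replicate number, differed less. It was above both others of its group for 25 members and below both for 11, with a median of 1.39-fold over the 38 members with over 3 counts in the others. Hoxd9 was at 7.24 CPM there and at 0.198 and 0.744 CPM in the others. Hoxa2 at 16.7 CPM and Hoxb2 at 13.1 CPM were below both others, as at day 4. Primitive streak markers summed to 1841 CPM there against 299 and 401 CPM, and neural tube markers to 84.6 CPM against 583 and 526 CPM. The gene T gave 1261 CPM of the primitive streak sum there, and it is in the caudal epiblast list too. The part of these markers was not tested.

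**Figure D5:**
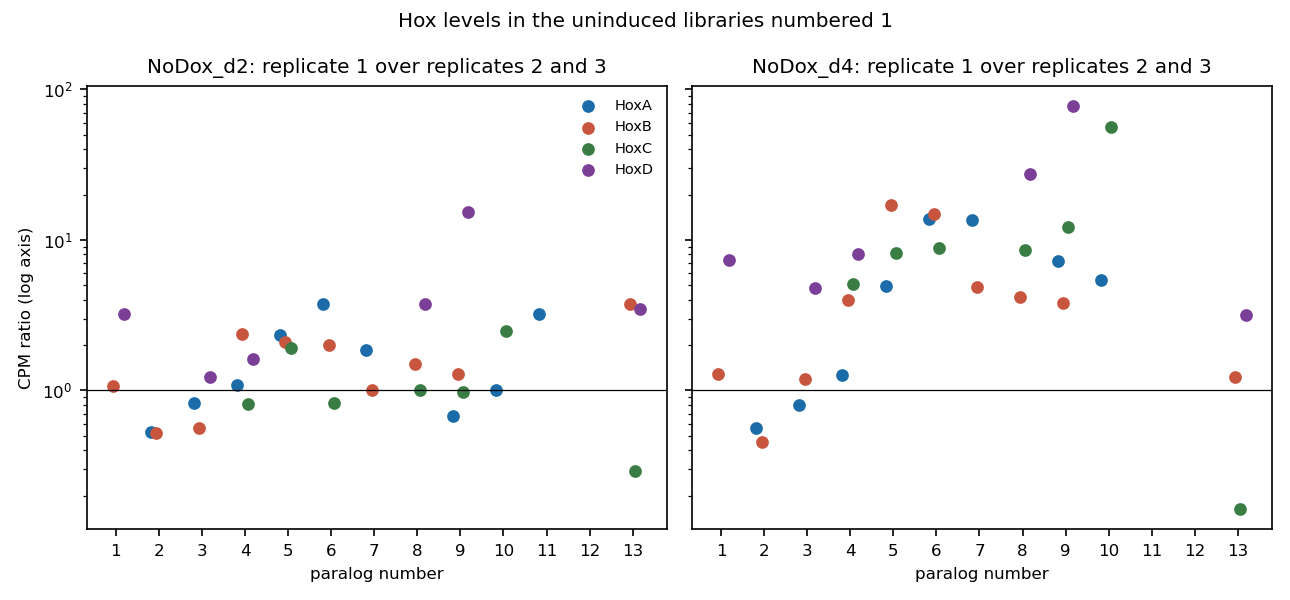
CPM in replicate 1 over the mean of replicates 2 and 3 (log axis) against paralog number for coding members, 1 left out, with over 3 counts in replicates 2 and 3, in NoDox_d2 (left) and NoDox_d4 (right). In NoDox_d4 paralog group 2 lies below 1 and groups 4 to 10 above 1, up to 77.3-fold for Hoxd9.

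Antisense transcripts did not keep a fixed proportion to their neighbours. The ratio of Hoxaas2 to Hoxa3 in CPM was 0.144 to 0.281 in D1Dox_d2, 0.665 to 0.842 in D3Dox_d4 and 0.904 to 1.19 in NoDox_d4. In NoDox_d2 it was 0.559 in replicate 1 and 2.08 and 1.90 in the others, so no library of NoDox_d2 overlapped D1Dox_d2. Hoxaas3, with 30.7% of its exon bases against genes on the opposite strand, Hoxa7 among them, stood at 0.268 to 0.521 of Hoxa7 in D1Dox_d2. It stood at 1.97 to 2.07 in NoDox_d2, at 1.23, 1.23 and 0.862 in D3Dox_d4 and at 0.581, 1.81 and 1.16 in NoDox_d4. Hoxb5os stood at 0.087 to 0.208 of Hoxb5 in D1Dox_d2, where it gave only 2, 2 and 5 counts. The ratio was 0.714, 2.00 and 1.80 in NoDox_d2, 1.23 to 1.74 in D3Dox_d4, which overlaps it, and 2.30 to 5.50 in NoDox_d4. For Hoxb3os and Hoxb3 the ranges overlapped, at 1.07 to 2.03 in D1Dox_d2 and 1.08 to 2.76 in NoDox_d2, and these genes share most of their exon bases. Hoxd3os1 was not called in any comparison with all libraries, and Hoxa11os, with 69 counts over the 12 libraries, was not tested. The ratios are not corrected for length and have no test.

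Genes that work with the Hox proteins or act on the clusters were counted in lists, for all 12 libraries unless stated. Of all genes, 14.9% rose and 13.4% fell at day 2, 13.4% and 10.2% at day 4, and 22.6% and 21.4% between the induced groups. Replicate 1 of NoDox_d2 stood apart in some listed genes, such as Meis1, at 42.8 CPM there and at 155 and 149 CPM in the others of its group. Of the 9 Pbx, Meis and Pknox cofactors, 4 fell and 1 rose at day 2. Meis3 fell by 0.80 ± 0.09 and Pbx3 rose by 1.43 ± 0.18 (edgeR adjusted p = 0.00011 and 0.000227). At day 4, 2 rose, Pbx3 and Meis3, and between the induced groups 7 rose, Meis3 by 1.45 ± 0.09 (edgeR adjusted p = 2.3e-06). Of 13 tested Cdx, Wnt, FGF and streak genes, 7 fell at day 2. Wnt8a, a streak Wnt ligand, fell by 3.22 ± 0.15 and T, a mesoderm transcription factor, by 3.25 ± 0.79 (edgeR adjusted p = 1.36e-07 and 0.0109). T was at 1261 CPM in NoDox_d2 replicate 1 and at 100.1 and 142 CPM in the others, and without that library its fall was 1.21 ± 0.28 (edgeR adjusted p = 0.00587). Without both uninduced libraries numbered 1 the 7 falls of this list were joined by 4 rises, where 26.4% of all genes fell and 26.8% rose.

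Of 17 retinoic acid genes, 2 rose and 6 fell at day 2, where 14.9% and 13.4% of all genes did. At day 4, 2 rose and 6 fell as well, where 13.4% and 10.2% did. Aldh1a1, which makes retinoic acid, rose at day 2 from 0.177, 0 and 0 CPM to 2.35, 2.97 and 3.03 CPM, while the carrier Crabp2 fell by 2.42 ± 0.38 (edgeR adjusted p = 0.000437 and 0.000904). Outside D1Dox_d2, Aldh1a1 was at 0.406 CPM or less. Its passing of the filter thus leaned on that group, and its call adds nothing to the levels. At day 4 the receptor Rara rose by 0.75 ± 0.10 and Rdh10, an enzyme of retinal synthesis, fell by 1.37 ± 0.24 (edgeR adjusted p = 0.000248 and 0.00199). Of 19 Polycomb genes, 9 fell at day 2, where 13.4% of all genes did, with Phc1 at -1.36 ± 0.16 and Phc2 at -0.78 ± 0.13. Between the induced groups 9 rose and 4 fell, where 22.6% and 21.4% of all genes did. Of 10 trithorax and demethylase genes, 2 fell at day 2, Ash2l and Wdr5, and 2 between the induced groups, Kmt2d and Dpy30. Of all genes 13.4% and 21.4% fell in these comparisons, so the counts lie near the share of all genes. The calls of Ash2l and Wdr5 ended without D1Dox_d2 replicate 3 and that of Wdr5 also without NoDox_d2 replicate 3, and the call of Dpy30 ended when any 1 of 8 of the 12 libraries was left out (edgeR adjusted p of 0.0521 to 0.155). Of 11 tested genes in or beside the clusters, Hotairm1, a noncoding transcript of the HoxA cluster, fell by 1.33 ± 0.30 at day 2 (edgeR adjusted p = 0.00773) and rose by 1.88 ± 0.31 between the induced groups (edgeR adjusted p = 0.000646). Skap1, the gene beyond Hoxb1, rose by 1.95 ± 0.35 at day 2 and by 4.04 ± 0.38 at day 4 (edgeR adjusted p = 0.00183 and 2.52e-05). Of 10 tested ParaHox and other Hox-like homeobox genes, 1 rose and 2 fell at day 2, where 14.9% and 13.4% of all genes did. At day 4, 3 rose and 3 fell, where 13.4% and 10.2% did.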

How the data were processed

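Bulk RNA was sequenced from 12 libraries, 3 in each of 4 groups. Counts per gene, the deposited unit, were made by the authors with featureCounts 2.0.1 on read pairs without strand, against the GENCODE mouse release M25 annotation of GRCm38, per the file headers. STAR and DESeq2 are named, without a version, per the submitters' processing notes. Counts were tested with edgeR 4.0.16 (R 4.3.3, limma 3.58.1), with TMM scaling, its default filter on low counts, 1 coefficient for each group over all 12 libraries (8 residual degrees of freedom) and Benjamini-Hochberg adjustment over 18109 genes. CPM are TMM-scaled, and TPM were computed from the counts and the deposited gene lengths. On simulated data for the day 2 comparison (18109 genes), 53% of 100 genes changed 2-fold and 90% of 100 genes changed 4-fold were recovered, with 5 calls among unchanged genes. The changed genes were drawn from those with a mean of at least 1 CPM, so lower members are not covered. Counts were drawn independently, without the shared difference of the uninduced libraries numbered 1. Libraries held 24100487 to 28020036 counts, and intervals on count ratios are exact 95% intervals that cover counting error only.

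The members, gene lists and comparisons were chosen with earlier results of these data known. The 5 called members with the lowest adjusted p in each comparison and the highest member of each cluster were given by library, called members were named, and up to 2 called genes of each other list were named for a comparison. The values of 1 member are not reported here or drawn gene by gene, though they enter the fits, counts and sums. Alternatives were DESeq2 1.42.0, its size factors, other filters, a replicate block, only the libraries compared, and leaving libraries out. Deviations from group means correlated at 0.308 to 0.545 between same-numbered NoDox_d2 and NoDox_d4 libraries, while the labels do not say what a number stands for. Both libraries numbered 1 stood apart, and the deviations of libraries of 1 group are not independent. These values therefore cannot show that the libraries with other numbers are paired. All other group pairs gave -0.125 to 0.241 and were not taken as paired. Overlap of over 10% of exon bases touched 13 members on the opposite strand and 5 on the same strand. Promoter sequences are from RefSeq (GRCm38.p6).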

Additional observations from a re-analysis of the deposited data

Results flagged for a closer look

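For 7 members the effect of doxycycline at day 4 differed from that at day 2 by the test of the difference itself. The difference (day 4 minus day 2, log2) was 1.75 for Hoxb1, 2.07 for Hoxa3, 1.91 for Hoxa4, 4.47 for Hoxaas2 and 2.14 for Hoxa2. It was -2.70 for Hoxb13 and -4.15 for Hoxd13. Without both uninduced libraries numbered 1 these differences were 1.86, 2.07, 2.00, 4.73, 2.17, -3.52 and -4.23, and each was still called (edgeR adjusted p under 0.05). The limit on the filter given above applies to Hoxd13.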

How the results depend on the processing

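Of 62 calls of single members, 36 were kept under every alternative run and 0 reversed. With both uninduced libraries numbered 1 left out, 6 members were higher at day 2, 18 higher and 4 lower at day 4, 27 had a higher difference of effects and 1 was lower between the uninduced days. The shares of all genes in that fit are given above. Without the filter, 1 of 44 members was higher and 7 were lower at day 4, 8 had a higher difference and 23 were higher between the uninduced days. Of the 35668 genes tested there, 2274, 1553, 1354 and 948 were. With at least 1 CPM in 3 libraries, 1 was lower at day 4, 1 in the difference and 1 between the induced days. Of the 15456 genes tested there, 1957, 1109 and 3657 were lower. DESeq2 called 5 lower at day 4 and 1 lower between the uninduced days, where 2284 and 1427 of 18027 genes were. With only the libraries compared, 0 were higher at day 2 and 0 between the uninduced days, where 2604 of 17097 and 84 of 16589 genes were. With the replicate block over all libraries, 1 was lower at day 4, and between the uninduced days 1 was lower and 9 were higher. Of the 18109 genes, 1801, 947 and 894 were. In that fit Hoxb3os at day 2 had an edgeR adjusted p of 0.0517 and Hoxd13 at day 4 of 0.0634. Leaving out 1 library of the groups compared gave 0 to 2 higher and 10 to 13 lower at day 2, 0 to 11 higher and 1 to 5 lower at day 4, and 5 to 20 higher and 0 to 2 lower in the difference. These fits tested 18622 to 18849 genes. Of all genes, 1827 to 3788 were higher and 1197 to 3650 lower at day 2, and 1725 to 2475 and 1031 to 1811 at day 4. In the difference 628 to 2663 were higher and 592 to 2374 lower. It gave 3 to 20 higher and 0 to 1 lower between the uninduced days, and 18 to 22 higher and 2 to 3 lower between the induced days. Of all genes, 515 to 1702 were higher and 537 to 1506 lower between the uninduced days. Between the induced days 3039 to 3480 were higher and 2937 to 3189 lower. Libraries of the other groups enter through the shared fit. Without NoDox_d4 replicate 1, 3 members were higher and 18 lower at day 2 and 31 were higher between the induced days. Of the 18805 genes tested there, 3422, 3358 and 4839 were. Without NoDox_d2 replicate 1, 4 were lower at day 4, where 2458 of 18746 genes were. Leaving out 1 induced library gave 8 to 10 higher between the uninduced days, where 649 to 805 of 18622 to 18841 genes were. With CPM in place of TPM, Hoxb1 and Hoxb9 stayed the highest members, at 52.5 and 47.0 CPM. Members with few counts, such as Hoxa13, Hoxd10, Hoxd11 and Hoxd12, are limited by depth.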
